A study of Mus musculus with 10 samples.

Results

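The regions described here are the differentially methylated regions (DMRs) between lymph node (LN) locations that lie within 2000 bp of an annotated transcriptional start site (TSS). They were taken from the deposited lists of DMRs between stromal cells (SCs) of gut-draining mesenteric LNs (mLN) and skin-draining peripheral LNs (pLN), of which one was made in specific pathogen-free (SPF) mice and the other in germ-free (GF) mice. The distance to the nearest TSS given with each DMR selected 399 DMRs, 149 from SPF mice and 250 from GF mice, and those overlapping by at least 1 bp were merged. This gave 314 regions of the 1602 regions that all DMRs of the study form when merged in the same way. Of the 314 regions, 74 held DMRs from both housing conditions, 73 from SPF mice only and 167 from GF mice only. The values that called a DMR were not used for the selection by distance, but every member had to differ between mLN and pLN in the mice it was called in, so that difference is given below as a description without a test.

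The cells were non-endothelial SCs of BALB/c mice, sorted as CD45-CD31-Ter119-Pdpn+ cells, and whole-genome bisulfite sequencing was run on 3 mLN and 3 pLN libraries of SPF mice and 2 mLN and 2 pLN libraries of GF mice. The study names its SPF-bred BALB/c line as CD90.1 and its GF mice only as BALB/c. Whether the GF mice carried CD90.1 is not stated, so such a difference cannot be told apart from housing. No other genotype, transgene or treatment is given that separated the groups. They differed in LN location and in housing, and the mice were young adults whose stated age ranges overlapped between SPF and GF mice without being the same. The study's methods state that the GF mice came from caesarean derivation at a different institution, so colony, age range and housing cannot be told apart, and 1 mLN GF and 1 pLN GF replicate had been set aside as outliers before deposit. The source field of the pLN samples names a mesenteric node beside the words for skin drainage, and the titles, which say pLN, were followed here. The sorted cells are a mixture of reticular and CD34+ subsets, and in such a bulk sample a change in the share of a subset and a change of methylation within each cell cannot be told apart.

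DNA methylation at CpG dinucleotides is copied at cell division and therefore persists through cell generations. CpG-dense promoters are mostly kept free of methylation, whereas the flanks of promoters of developmental regulators, among them the homeobox genes that set position along the body, often differ in methylation between cells from different sites. LN stromal cells arise from local mesenchyme and build the scaffold on which lymphocytes meet, with chemokines such as Cxcl13 made by their follicular and marginal subsets.

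The sequences that follow are from 5 of the regions with the most measured CpGs of their direction, because their differences rest on a large number of sites. Each is the 150-base window inside the region and outside annotated UTRs that holds the most measured CpGs, on the forward strand of GRCm38.p6 (RefSeq), with the measured CpGs in capitals. The first 3 were less and the last 2 more methylated in mLN.
Meis1/Gm16140, chr11:19008208-19008357, intron of Meis1: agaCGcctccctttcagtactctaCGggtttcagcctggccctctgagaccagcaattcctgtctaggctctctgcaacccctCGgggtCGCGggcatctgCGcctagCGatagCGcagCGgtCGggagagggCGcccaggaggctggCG
Gm14205, chr2:158613888-158614037, coding exon of Slc32a1: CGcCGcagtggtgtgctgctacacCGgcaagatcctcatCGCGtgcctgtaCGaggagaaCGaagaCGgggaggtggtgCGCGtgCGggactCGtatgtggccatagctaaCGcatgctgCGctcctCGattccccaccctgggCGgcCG
Prdm16, chr4:154634780-154634929, intron of Prdm16: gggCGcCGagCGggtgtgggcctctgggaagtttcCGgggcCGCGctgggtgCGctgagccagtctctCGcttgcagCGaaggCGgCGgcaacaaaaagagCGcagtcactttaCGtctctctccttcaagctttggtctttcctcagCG
Mab21l1, chr3:55783810-55783959, coding exon of Mab21l1: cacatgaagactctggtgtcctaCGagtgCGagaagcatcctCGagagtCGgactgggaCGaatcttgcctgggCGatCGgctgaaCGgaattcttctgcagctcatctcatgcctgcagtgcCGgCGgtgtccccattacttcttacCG
Adamtsl5, chr10:80342110-80342259, coding exon of Adamtsl5: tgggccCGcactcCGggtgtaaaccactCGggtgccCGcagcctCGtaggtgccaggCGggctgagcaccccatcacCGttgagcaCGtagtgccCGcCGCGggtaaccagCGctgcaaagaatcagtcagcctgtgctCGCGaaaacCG

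Over the 12 CpGs of the Meis1 window, mLN averaged 7.10% ± 3.60 in SPF mice (SD of 3 libraries) and 1.74% ± 0.491 in GF mice (SD of 2 libraries). In pLN the same CpGs averaged 76.4% ± 4.74 in SPF mice and 64.6% ± 15 in GF mice, with n as before. Every CpG of this window was lower in mLN, by 46.6 to 89.2 percentage points over the means of both housing conditions. In the Prdm16 window, all 14 CpGs were lower in mLN, by 28.9 to 69.5 points. All 11 CpGs of the Mab21l1 window were higher in mLN, by 35.3 to 62.7 points. The remaining windows were less even. In SPF mice, the 17 CpGs of the Gm14205 window averaged 26.6% ± 20.1 in mLN and 33.7% ± 6.38 in pLN (SD of 3 libraries each), a difference smaller than the SD of mLN. In GF mice they averaged 13.3% ± 8.35 in mLN and 66.5% ± 7.70 in pLN (SD of 2 libraries each). The DMR of the Adamtsl5 window was listed in SPF mice only, where its CpGs averaged 44.2% ± 18.5 in mLN and 16.4% ± 6.99 in pLN. The GF libraries went the other way in this window, with 26.0% ± 0.621 in mLN and 37.7% ± 10.3 in pLN.

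The regions held 4510 measured CpGs, with a median of 9 per region and a range of 3 to 111, and their median length was 464.5 bp (15 to 4389 bp). Between 99.6% and 99.9% of all CpGs in DMRs had a value in each library. Averaged over the 314 regions, methylation was 43.3% to 47.4% in the 5 mLN libraries and 51.5% to 54.8% in the 5 pLN libraries. The number of reads behind a CpG value was not used here, so the errors given are those between libraries, and 75 regions of 3 or 4 CpGs are the least precise. None of the 17 cell type marker genes looked up was the nearest gene of any DMR. Among them were Pdpn, Pdgfra and Ccl19 of stromal cells, Pecam1 and Lyve1 of endothelium and Ptprc of leukocytes. Values exist only inside DMRs, so this cannot show how pure the sort was.

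Of the 314 regions, 203 were less methylated in mLN and 111 more methylated in mLN. The less methylated were 117 of 167 regions listed in GF mice only, 38 of 73 in SPF mice only and 48 of 74 in both. By the sign of the mean difference over both housing conditions, 64.65% of the 314 regions were less methylated in mLN. Among location regions farther away, the share was 59.5% (2 to 5 kb), 49.3% (5 to 50 kb) and 39.2% (beyond 50 kb). These shares were not tested. In the less methylated set, mLN averaged 37.1% ± 2.52 in SPF mice (SD, n = 3) and 32.9% ± 1.74 in GF mice (SD, n = 2), while pLN averaged 60.1% ± 1.24 and 62.8% ± 1.51. In the more methylated set, mLN averaged 62.0% ± 0.738 in SPF mice and 64.1% ± 0.453 in GF mice, while pLN averaged 38.8% ± 0.966 and 38% ± 0.0245, with the same n. Most values were thus intermediate: between 77.8% and 91.1% of the regions of each direction had a group mean from 20% to 80%. Regions without methylation in one location were few. A mean under 10% in mLN of both housing conditions was found in 6 regions, next to Hlx, Gm16141, A530016L24Rik, Nkx2-3, Emx2 and Tbx15, and in pLN in 0 regions, where a mean under 20% in both housing conditions was found in 15 regions (31 in mLN). In 214 of the 314 regions all 5 mLN libraries lay on the same side of all 5 pLN libraries, against 80.0% of all location regions. As every region had been called on part of these libraries, both shares are descriptions.

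**Figure D1:**
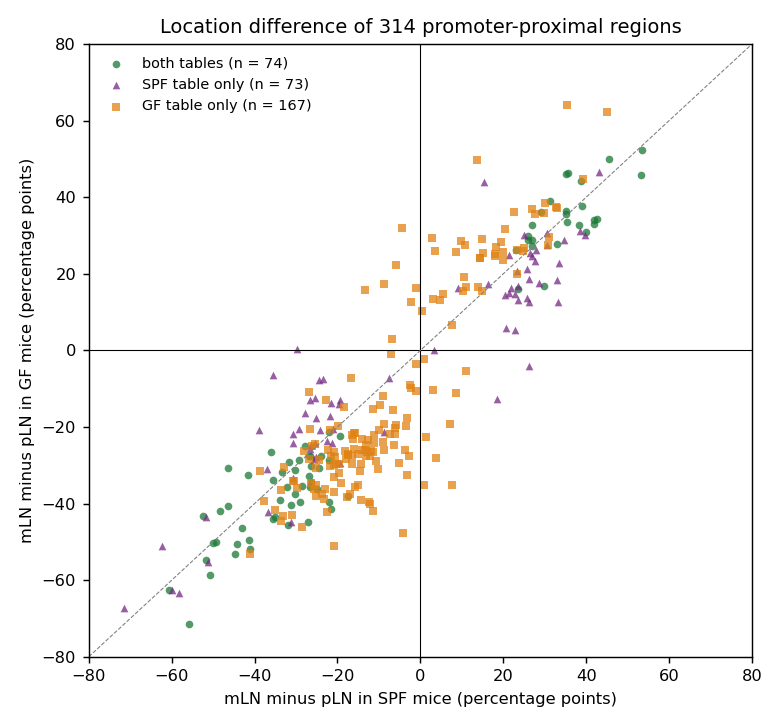
Difference in methylation between mLN and pLN (percentage points) of each of the 314 regions in SPF mice (horizontal axis) and in GF mice (vertical axis), by the list in which the region's DMRs were found. The sign was the same in both housing conditions in 295 regions, and the 19 others lie above 0 on one axis and below 0 on the other.

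The regions flanked start sites more often than they covered them. The share expected for regions of this length placed anywhere within 2000 bp of a start was not computed. The labelled TSS lay inside 33 regions, whereas 149 regions were downstream and 132 upstream of it. Of the 4510 CpGs, 482 (10.7%) were within 250 bp of the labelled TSS and 1850 (41.0%) within 1000 bp. Of 32851 RefSeq promoter windows, each of 250 bases before to 50 bases after a start, 20 overlapped any of the regions. With 314 regions this share could only be small, so it does not show whether regions flank or cover starts. The 20 windows belonged to 17 genes, among them Nkx2-3, Ubash3a, Tspan8 and Ghr in regions less methylated in mLN. Klb, Shroom3, Hkdc1, Hapln1 and Fbxo27 were among those in regions more methylated in mLN. The Hapln1 DMR, listed in GF mice only, did not pass in SPF mice (limma, 2.80 ± 4.48 points SE, adjusted p = 0.570). By the GENCODE M21 annotation, 130 regions were intronic, 74 intergenic, 56 touched a coding exon, 36 a non-coding exon and 18 a UTR without coding sequence. Of the 33 regions that contained the TSS, 15 were less and 18 more methylated in mLN, while 89 of 132 upstream regions and 99 of 149 downstream regions were less methylated in mLN. The difference between these shares was not tested.

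**Figure D2:**
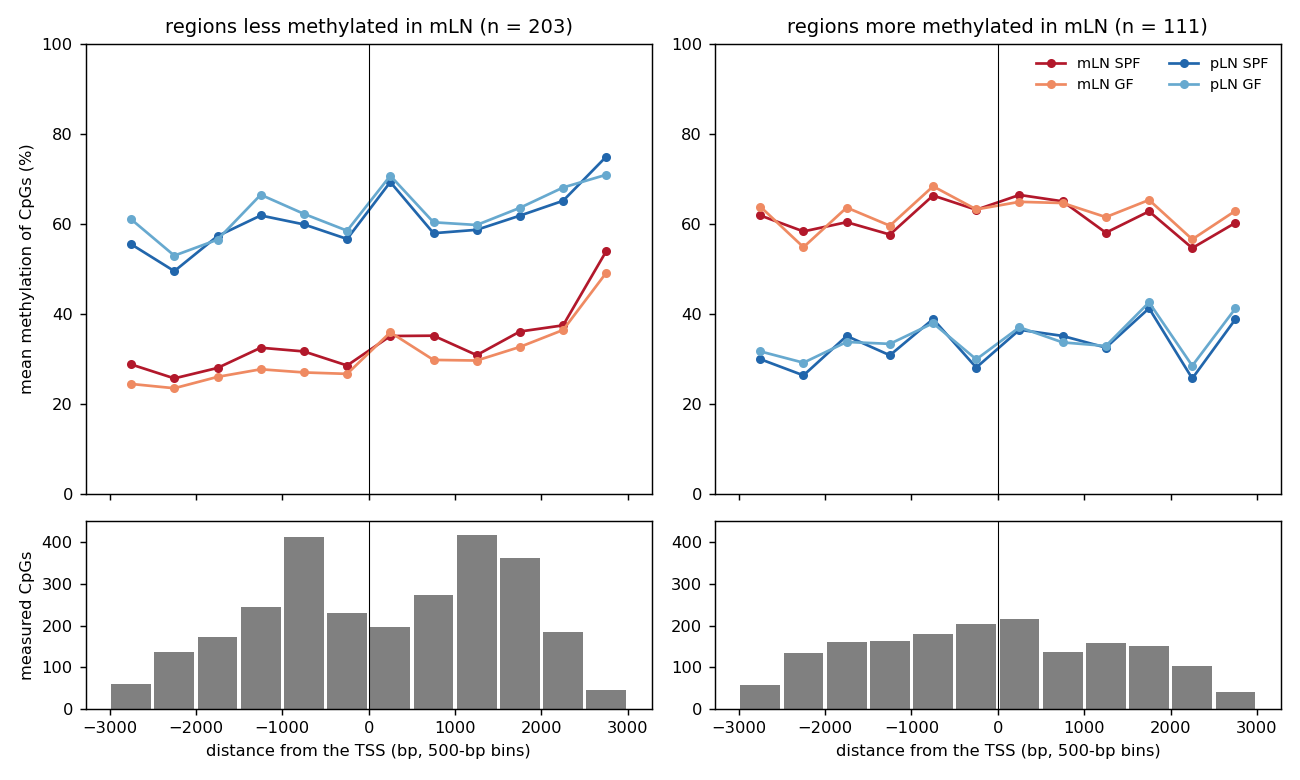
Mean methylation (%) of the measured CpGs in bins of 500 bp by distance from the labelled TSS (negative values are upstream), for regions less (left) and more (right) methylated in mLN, with the number of CpGs per bin below. Each line is a group of libraries, and no bin of either direction shows the mLN and pLN lines crossing. Regions were selected for a location difference and split by its sign, which favours lines that stay apart.

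Along the distance from the TSS, the location difference kept its sign in every bin. The selection of regions for such a difference and their split by direction favour this. In regions less methylated in mLN, the CpGs of the 12 bins from 3000 bp upstream to 3000 bp downstream differed by 21.4 to 34.6 points, the largest value being found in the first 500 bp downstream of the TSS (196 CpGs in 31 regions). There, the CpGs averaged 35.0% in mLN SPF, 35.9% in mLN GF, 69.3% in pLN SPF and 70.7% in pLN GF. In regions more methylated in mLN, the differences ran from 21.6 to 34.2 points, with the largest in the last 500 bp upstream (204 CpGs in 25 regions). Neighbouring bins share regions and libraries, so these values describe the libraries and carry no test.

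For a comparison in libraries independent of the call, the SPF DMRs were tested in the 4 GF libraries and the GF DMRs in the 6 SPF libraries with limma, over all DMRs of a list. Of the 149 promoter-proximal SPF DMRs, 128 (85.9%) passed an adjusted p of 0.05 in GF mice, and the background over all 806 SPF DMRs was 89.0%. Of the 250 promoter-proximal GF DMRs, 178 (71.2%) passed in SPF mice, and the background over all 1293 GF DMRs was 82.4%. The sign was the same as in the calling libraries for 146 of the 149 and 234 of the 250 DMRs. In the direction of the call, the median difference in the unused libraries was 29.5 points for the SPF DMRs near a TSS, against 30.7 points over all SPF DMRs, and 21.3 points for the GF DMRs near a TSS, against 26.4 points over all GF DMRs. A difference of at least 25 points, the smallest the study accepted on its smoothed values, was reached in the unused libraries by 93 of the 149 and 104 of the 250 DMRs. In the libraries of the call itself, the unsmoothed means reached it in 110 and 182 DMRs, and 4 and 11 DMRs differed by under 10 points.

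The number of CpGs moved with these shares. Among GF DMRs near a TSS, 35 of 68 with 3 or 4 CpGs were called in SPF mice, 56 of 81 with 5 to 9 CpGs and 87 of 101 with 10 or more CpGs. The corresponding shares of GF DMRs farther from a TSS were 64.3%, 81.5% and 95.7%, so that the share near a TSS was lower in each class (51.5%, 69.1% and 86.1%). The sign was the same in 56 of the 68 smallest DMRs near a TSS and in 197 of 207 farther away. Among SPF DMRs, those near a TSS were called in 70.0%, 75.8% and 92.7% of the 3 classes and the others in 57.1%, 76.1% and 98.3%. Between the distance classes beyond 2000 bp, the share of GF DMRs called in SPF mice was 90.1% from 2 to 5 kb, 83.3% from 5 to 50 kb and 85.6% beyond 50 kb. Whether these shares differ by more than chance was not tested, since neighbouring DMRs are not independent.

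**Figure D3:**
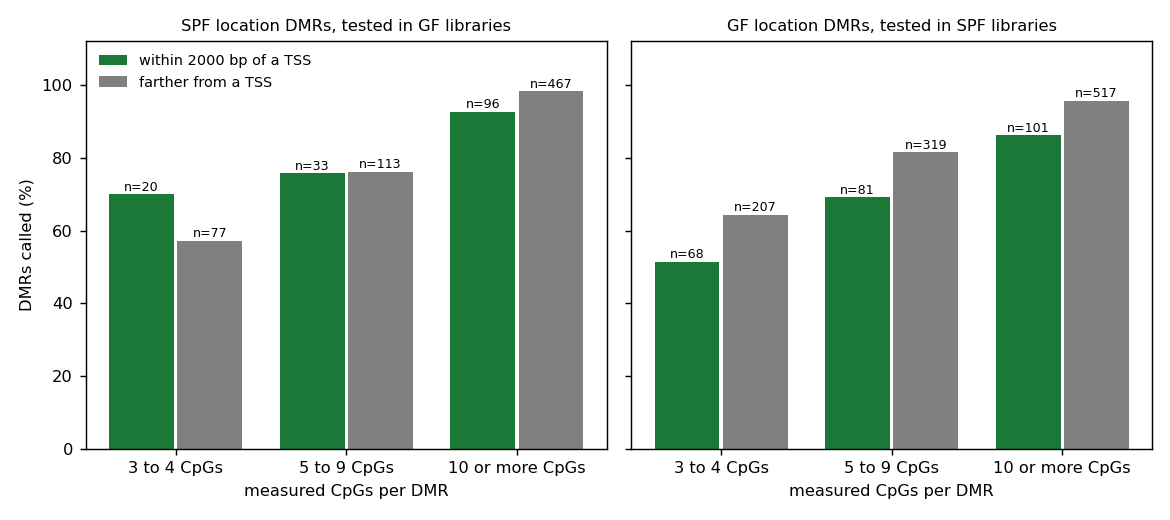
Share of DMRs (%) with an adjusted p under 0.05 in the libraries that had not called them, by number of measured CpGs, for DMRs within 2000 bp of a TSS and farther away, with the number of DMRs above each bar. In the GF list the bars of DMRs near a TSS are the lower ones in all 3 classes, and in both lists the bars rise with the number of CpGs.

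The gene lists were written with the SPF DMRs known, so their ranking is a description. Homeobox genes, which encode transcription factors of body patterning, had the most regions of the gene lists examined. Their 36 regions lay at 23 labelled genes, 28 being less and 8 more methylated in mLN, compared with 203 and 111 over all regions. In the libraries not used for the call, 23 of 24 SPF DMRs and 32 of 35 GF DMRs of this list were called (89.0% and 82.4% over all DMRs), with median differences in the direction of the call of 39.2 and 33.8 points (30.7 and 26.4 points over all DMRs). The DMRs that were not called belonged to Irx2, Hoxa10, Hoxd8 and Hoxd11. The median number of CpGs in the DMRs of this list was 19 (SPF) and 10 (GF). It was 17 and 9 over all DMRs, and 15 and 7.5 over those near a TSS. Whether the shares of this list differ beyond the number of CpGs was not tested.

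The region with the most CpGs of all was that of Meis1, a cofactor of Hox proteins, at chromosome 11, 19007297 to 19011685 (111 CpGs), which also contains the start of Gm16140, an antisense transcript. The 3 mLN SPF libraries had 13.5%, 20.1% and 19.8%, the 2 mLN GF libraries 13.1% and 13.6%, the 3 pLN SPF libraries 72.2%, 70.5% and 66.1%, and the 2 pLN GF libraries 69.3% and 67%. Each mLN library was thus far below each pLN library, and the SPF DMR differed by -54.8 ± 4.00 points (SE) in GF mice (limma, adjusted p = 0.000460). A further region 219 bp upstream of a Meis1 start (4 CpGs) had 11.6% to 41.2% in mLN and 74.4% to 90.3% in pLN. The paralogue Meis2 had 4 regions, all less methylated in mLN, of which the largest, at chromosome 2, 116060319 to 116061220 (35 CpGs), had 10.4%, 10.6% and 21.5% in mLN SPF, 17.9% and 9.11% in mLN GF, 69.4%, 56.0% and 56.0% in pLN SPF, and 46.4% and 42.3% in pLN GF.

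Emx2, known for its part in forebrain and urogenital development, had 4 regions within 2000 bp of its starts, all less methylated in mLN. At chromosome 19, 59461699 to 59462386 (25 CpGs), mLN libraries had 7.98%, 9.01% and 8.61% in SPF mice and 10.9% and 3.84% in GF mice, while pLN libraries had 74.2%, 59.3% and 59.2% in SPF mice and 76.0% and 81.7% in GF mice. This was the region with the largest difference in GF mice, -71.5 ± 4.75 points (SE) for the SPF DMR (adjusted p = 0.000423). The last of its regions, 1854 bp downstream of a start and in a UTR (9 CpGs), was listed in SPF mice only and still differed by -62.6 ± 7.61 points (SE) in GF mice (adjusted p = 0.000773).

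Shox2 is a homeobox gene of limb and heart development. Its labelled TSS lay inside a region at chromosome 3, 66977016 to 66978614 (48 CpGs). No RefSeq promoter window of Shox2 overlapped this region. Its levels were 9.54%, 13.6% and 17.6% in mLN SPF, 13.5% and 11.7% in mLN GF, 77.0%, 70.3% and 75.1% in pLN SPF, and 75.2% and 75.4% in pLN GF. The 3 regions of Lmx1b, a gene of dorsal limb patterning, were less methylated in mLN in every library, with the largest (31 CpGs) at 9.56% to 14.6% in mLN and 52.3% to 63.2% in pLN.

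Hlx and Nkx2-3 are homeobox genes of visceral mesenchyme, and the latter is known to be needed for spleen and gut-associated lymphoid tissue. The Nkx2-3 region, upstream of the TSS (chromosome 19, 43611021 to 43612199, 36 CpGs), had 5.14%, 4.52% and 6.98% in mLN SPF, 5.66% and 2.92% in mLN GF, 40.4%, 31.6% and 35.3% in pLN SPF, and 34.9% and 36.2% in pLN GF. The Hlx region, 796 bp upstream of the TSS (chromosome 1, 184733416 to 184734688, 45 CpGs), had 2.32% to 13.2% in mLN and 35.0% to 54.1% in pLN. Both were named after their values were seen, as regions nearly unmethylated in mLN. Farther along the chromosome, at 43618961 to 43620927, the region labelled with Gm22646, annotated as a miRNA (46 CpGs), went the other way, with 66.2% to 74.8% in mLN and 12.9% to 20.4% in pLN, and its SPF DMR differed by 52.3 ± 4.46 points (SE) in GF mice (adjusted p = 0.000500).

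The 8 homeobox regions more methylated in mLN included those of Isl1 (3 regions), Nkx3-2 and Hoxa7. Isl1 marks cardiac and hindlimb progenitors and motor neurons. Its 3 regions are too far apart to lie near the same start. That at chromosome 13, 116302657 to 116303263 (19 CpGs), was 87 bp downstream of a labelled start. It had 73.8%, 67.6% and 52.5% in mLN SPF, 57.2% and 57.2% in mLN GF, 12.5%, 9.26% and 12.3% in pLN SPF, and 13.9% and 8.69% in pLN GF. In this region mLN and pLN libraries did not overlap, and in the unused GF libraries its DMR differed by 45.9 ± 4.23 points (SE, adjusted p = 0.000514).

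**Figure D4:**
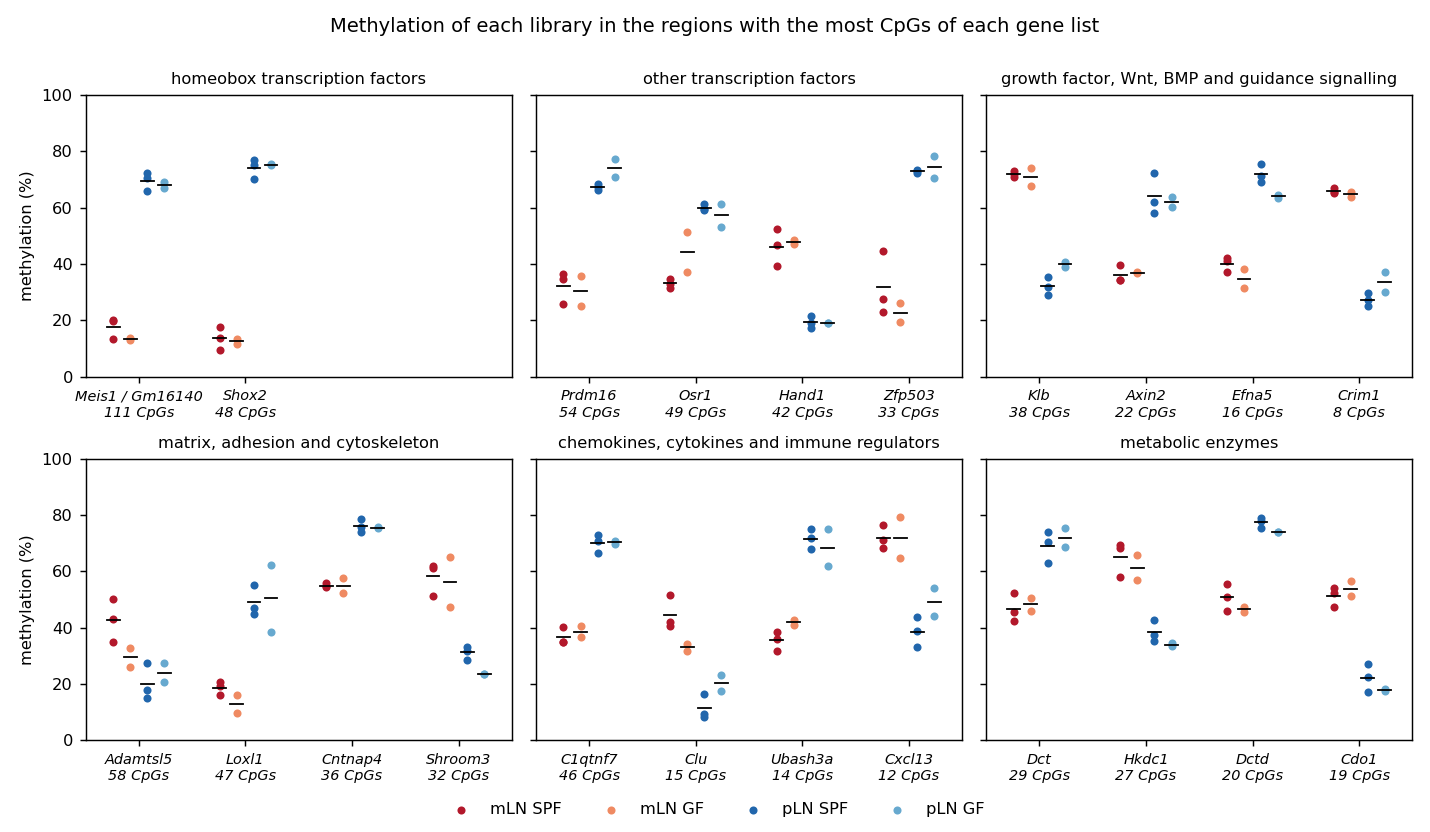
Methylation (%) of each library in up to 4 of the regions with the most CpGs of each gene list, with 1 point per library and a bar at the group mean. In every region shown except Adamtsl5, all mLN libraries lie apart from all pLN libraries.

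Other transcription factors had 24 regions, 14 less and 10 more methylated in mLN. Of their DMRs, 17 of 20 from SPF mice (85%) and 9 of 13 from GF mice (69.2%) were called in the unused libraries. The shares over all DMRs were 89.0% and 82.4%. Tbx15, a T-box gene of skeletal and skin patterning, had the largest difference of any region listed in SPF mice only. Its 16 CpGs, 680 bp upstream of the TSS (chromosome 3, 99239362 to 99239699), had 1.26%, 1.14% and 7.27% in mLN SPF, 7.77% and 5.89% in mLN GF, 69.2%, 82.3% and 72.5% in pLN SPF, and 64.7% and 83.7% in pLN GF. In GF mice this was a difference of -67.4 ± 6.82 points (SE, adjusted p = 0.000549). Prdm16, known as a regulator of brown fat and hematopoietic stem cells, had 25% to 36.4% in mLN and 66.1% to 77.2% in pLN over 54 CpGs. Zfp503 (33 CpGs) had 19.4% to 44.8% in mLN and 70.5% to 78.5% in pLN, although a GF DMR of 5 CpGs within it was not called in SPF mice (-11.8 ± 8.75 points SE, adjusted p = 0.228).

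Hand1, a basic helix-loop-helix factor of heart and lateral mesoderm, had 3 regions, all more methylated in mLN. The largest (42 CpGs, 142 bp upstream of the TSS, chromosome 11, 57832961 to 57834329) had 52.3%, 46.6% and 39.4% in mLN SPF, 48.4% and 47.1% in mLN GF, 21.6%, 17.2% and 19.0% in pLN SPF, and 18.9% and 19.2% in pLN GF. Another region of 3 CpGs, 1861 bp upstream and listed in SPF mice only, overlapped between mLN (70.2% to 95.8%) and pLN (41.2% to 78.6%) of SPF mice, whereas in GF mice its DMR differed by 44.0 ± 7.75 points (SE, adjusted p = 0.00238). Osr1, which acts in kidney and mesenchyme development, was listed in SPF mice with 49 CpGs. There it had 31.5% to 34.9% in mLN and 59.0% to 61.2% in pLN, but in GF mice the libraries had 51.3% and 37.4% in mLN and 53.1% and 61.4% in pLN, a difference of -12.9 ± 6.14 points (SE) that was not called (adjusted p = 0.0883).

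Signalling genes of the growth factor, Wnt, BMP and guidance pathways had 10 regions, 5 in each direction. In the unused libraries, 6 of 9 SPF DMRs (66.7%) and 3 of 4 GF DMRs (75%) were called, against 89.0% and 82.4% over all DMRs. Klb encodes beta-Klotho, the coreceptor for FGF19 and FGF21 family hormones. Its region over the TSS (38 CpGs, chromosome 5, 65348057 to 65349105) had 70.9%, 73.0% and 71.9% in mLN SPF, 74.0% and 67.7% in mLN GF, 35.4%, 31.8% and 28.9% in pLN SPF, and 40.8% and 39.0% in pLN GF. Axin2, a negative regulator and target of Wnt signalling, had 34.3% to 39.8% in mLN and 58.0% to 72.4% in pLN (22 CpGs). Efna5, an ephrin ligand of guidance receptors, had 31.6% to 42.3% in mLN and 63.5% to 75.7% in pLN (16 CpGs). Crim1, a membrane protein that binds BMPs, went the other way, with 63.9% to 66.9% in mLN and 25% to 37.2% in pLN (8 CpGs), and its SPF DMR was called in GF mice with 31.1 ± 4.48 points (SE, adjusted p = 0.00116).

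Genes of matrix, adhesion and cytoskeleton had 24 regions, 15 less and 9 more methylated in mLN. Called in the unused libraries were 15 of 18 SPF DMRs (83.3%) and 13 of 16 GF DMRs (81.25%), against 89.0% and 82.4% over all DMRs. Loxl1, an enzyme that cross-links elastin, had 9.76% to 20.7% in mLN and 38.6% to 62.4% in pLN over 47 CpGs. The 3 regions of Tgm2, a transglutaminase that cross-links proteins, were less methylated in mLN in all libraries, with differences of -19.7 to -35.6 points in SPF mice and -27.6 to -34 points in GF mice. Shroom3, an actin-binding protein of cell shape, had 47.4% to 65.2% in mLN and 23.4% to 33.3% in pLN over 32 CpGs that spanned its TSS. Cntnap4, a cell adhesion molecule, was listed in SPF mice only and differed by a like amount in both housing conditions, by -21.1 points in SPF and -20.6 ± 4.26 points (SE) in GF mice (adjusted p = 0.00436). Adamtsl5, a secreted protein of the ADAMTS-like family, was listed in SPF mice with 58 CpGs, and in GF mice its libraries had 32.9% and 26.1% in mLN and 20.7% and 27.4% in pLN, a difference of 5.39 ± 4.83 points (SE, adjusted p = 0.322).

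Chemokines, cytokines and immune regulators had 7 regions, 5 less and 2 more methylated in mLN. The unused libraries called 4 of 6 SPF DMRs (66.7%) and 3 of 3 GF DMRs (100%), against 89.0% and 82.4% over all DMRs. Cxcl13, the chemokine that draws B cells into follicles, was more methylated in mLN over 12 CpGs in its body, 1348 bp downstream of the TSS (chromosome 5, 95958276 to 95959448). Its levels were 68.2%, 76.5% and 71.1% in mLN SPF, 79.3% and 64.7% in mLN GF, 43.7%, 38.9% and 33.2% in pLN SPF, and 44.0% and 54.2% in pLN GF. The difference in the unused GF libraries was 22.9 ± 6.51 points (SE, adjusted p = 0.0156). Clu, the secreted chaperone clusterin, was more methylated in mLN over its labelled TSS (15 CpGs), although no RefSeq promoter window of Clu overlapped the region. In SPF mice, mLN had 40.6% to 51.6% and pLN 8.25% to 16.6%. In GF mice, mLN had 31.8% and 34.4% and pLN 23.3% and 17.6% (limma, 12.7 ± 4.34 points SE, adjusted p = 0.0314). C1qtnf7, a secreted C1q-like protein, had 34.9% to 40.5% in mLN and 66.7% to 73.1% in pLN over 46 CpGs. Ubash3a, a suppressor of T cell receptor signalling, had 31.8% to 42.9% in mLN and 62.0% to 75% in pLN over 14 CpGs at its TSS.

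Metabolic enzymes had 13 regions, 9 less and 4 more methylated in mLN. In the unused libraries, 8 of 9 SPF DMRs (88.9%) and 5 of 8 GF DMRs (62.5%) were called, against 89.0% and 82.4% over all DMRs. Hkdc1, a hexokinase-domain enzyme, had 56.8% to 69.6% in mLN and 33.5% to 42.6% in pLN across its TSS (27 CpGs). Cdo1, which oxidises cysteine, also was more methylated in mLN, with 47.5% to 56.7% against 17.1% to 27.2% (19 CpGs). Dctd, a deaminase of nucleotide metabolism, had 45.5% to 55.7% in mLN and 74.1% to 78.9% in pLN (20 CpGs). Dct, an enzyme of melanin synthesis, was listed in SPF mice only and had 42.5% to 52.2% in mLN and 62.9% to 75.4% in pLN (29 CpGs), and in GF mice the difference was -23.6 ± 4.6 points (SE, adjusted p = 0.00348).

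The remaining 200 regions, 127 less and 73 more methylated in mLN, had a label in none of these lists. Among them, 55 of 63 SPF DMRs (87.3%) and 113 of 171 GF DMRs (66.1%) were called in the unused libraries. Over all DMRs the shares were 89.0% and 82.4%. For 74 of the 314 regions the labelled gene was not protein-coding or had no match by name in GENCODE M21, and 21 of these had a protein-coding start within 2000 bp. Of the regions in none of the lists, the one with the most CpGs was that of the antisense gene Gm14205 (93 CpGs), 1301 bp from a start of Slc32a1, the vesicular transporter of GABA and glycine, with 12% to 19.6% in mLN and 41.4% to 53.2% in pLN. Mab21l1, a gene of eye and craniofacial development, had the most CpGs (86) of the regions more methylated in mLN, with 70.7%, 64.7% and 63.0% in mLN SPF, 64.5% and 71.3% in mLN GF, 34.2%, 31.3% and 27.4% in pLN SPF, and 33.6% and 29.3% in pLN GF. The long intergenic RNA Gm26791 (49 CpGs) had 59.2% to 69.3% in mLN and 33.3% to 39.9% in pLN. Among regions listed in GF mice only, that of the snRNA Gm22361 had the largest difference in SPF mice of those more methylated in mLN (85.8% to 88.9% in mLN SPF and 33.3% to 52.9% in pLN SPF), over 3 CpGs, followed by Frmd4a (39.3 points) and Gm27636 (35.3 points). Of those less methylated in mLN, A230004M16Rik (-41.1 points), Ttll13 (-38.7 points) and Prlr, the prolactin receptor (-37.7 points), differed most in SPF mice.

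Several genes had more than 1 region near their starts. Of 31 labels with at least 2 regions, 30 had all of them in the same direction, the exception being Adamtsl5. Among the 11 labels with at least 3 regions were 8430419K02Rik, Emx2, Fam184a, Lmx1b, Meis2 and Tgm2 with regions less methylated in mLN, and Gm27715, H6pd, Hand1 and Isl1 with regions more methylated in mLN. The regions of a label are neighbours and share libraries, so they are not replicates. The non-coding gene 8430419K02Rik had 4 regions with mean differences of -41.3 to -58.1 points in SPF mice and of -42.0 to -63.4 points in GF mice. The 3 regions of Fam184a differed by -22.0 to -52.3 points in SPF mice and by -28.5 to -43.2 points in GF mice. The 3 regions of Gm27715, of which 2 lie in introns of Wt1os, the antisense transcript of the mesothelial and kidney regulator Wt1, had 55.6% to 78.0% in mLN and 4.76% to 51.7% in pLN. In H6pd, an enzyme that makes NADPH in the endoplasmic reticulum, all 3 regions were listed in GF mice only. Those of 6 and 3 CpGs were not called in SPF mice (limma, 14.4 ± 6.29 points SE with adjusted p = 0.0539 and 4.83 ± 5.65 points SE with adjusted p = 0.435). That of 5 CpGs was called in SPF mice (30.1 ± 6.04 points SE, adjusted p = 0.00106).

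**Figure D5:**
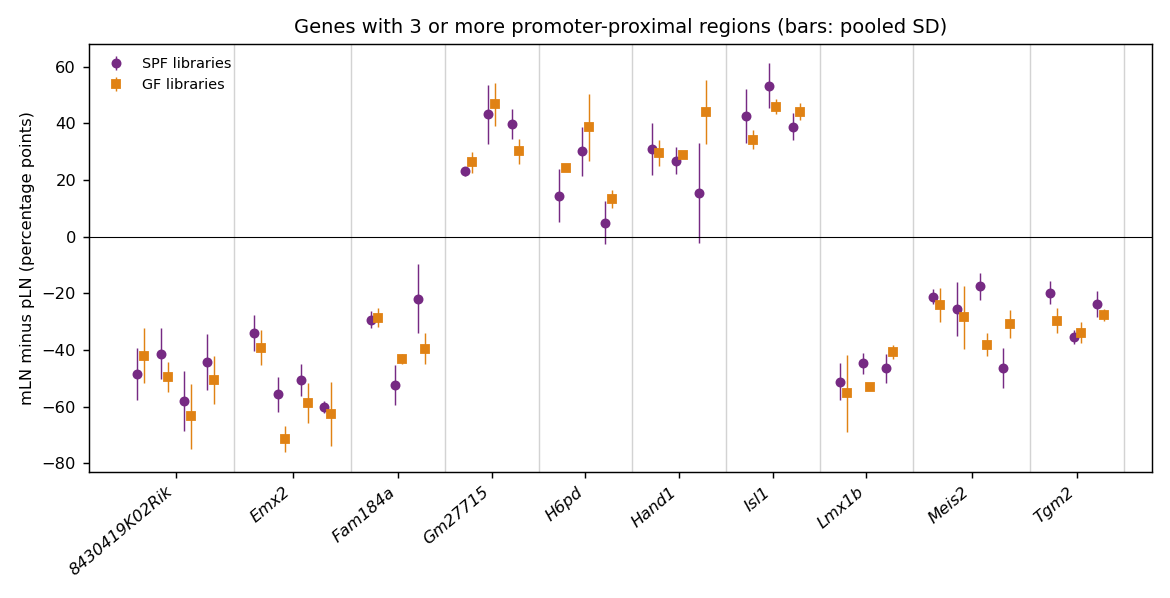
Difference in methylation between mLN and pLN (percentage points) of each region of 10 labels with at least 3 regions, in SPF and in GF libraries, ordered by position within a label, with bars of 1 pooled SD. All points of a label lie on the same side of 0 in both housing conditions.

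In 19 of the 240 regions listed in 1 housing condition, the difference had the opposite sign in the other, 16 of them being listed in GF mice and 3 in SPF mice. Their median number of CpGs was 4, and 13 had under 5 CpGs. The largest opposite differences were found at Gtf2h5, a subunit of transcription factor TFIIH, at Zxdb, a zinc finger gene, at Mta1, a subunit of a histone deacetylase complex, and at Smek1, a regulatory subunit of protein phosphatase 4. At Gtf2h5 (3 CpGs), mLN libraries had 60.6% and 69.4% and pLN libraries 52.4% and 46.4% in GF mice, but 48.5%, 57.4% and 71.4% against 83.3%, 85.0% and 48.8% in SPF mice. The difference in SPF mice, -13.3 ± 9.44 points (SE), was not called (adjusted p = 0.209). For Mta1 (4 CpGs) the SPF libraries differed by 11 ± 4.70 points (SE), which just passed the threshold (adjusted p = 0.0499), against a difference of -5.30 points in the GF libraries of its call. It was the 1 promoter-proximal DMR of either list called in the opposite direction. Zxdb (-12.7 ± 6.42 points SE, adjusted p = 0.104) and Smek1 (-8.77 ± 5.37 points SE, adjusted p = 0.150) were not called.

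Housing was compared over all 10 libraries, with location in the model. Of 314 regions, 0 were called for housing (limma, adjusted p under 0.05) against a background of 0% of 1609 regions, which are the 314 regions and all other DMRs merged apart from them. An unadjusted p under 0.05 was found in 12 of the 314 and 72 of the 1609 regions. The smallest adjusted p of this limma test was 0.855 among the 314 and 0.783 among the 1609 regions. The median size of the housing difference was 3.0 points. The smallest unadjusted p-values were found at Gm27636 (3 CpGs), Mink1, a kinase (18 CpGs), and Trps1, a GATA-type repressor of skeletal development (19 CpGs). Mink1 had 37.4%, 54.1% and 42.9% in mLN SPF against 28.2% and 28.4% in mLN GF, with 61.9%, 68.5% and 52.8% in pLN SPF against 52.8% and 49.9% in pLN GF, an estimate of 13.1 ± 4.06 points (SE) higher in SPF mice. Trps1 was 11.7 ± 3.76 points (SE) higher in SPF mice, and Gm27636 differed by -27.0 ± 7.13 points (SE). Housing DMRs of the deposited lists overlapped 3 of the regions, at 1700110I01Rik in pLN and at Igdcc3 and Zxdb in mLN.

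Whether the location difference itself depended on housing was asked with the interaction term. Of 314 regions, 0 were called, as were 0% of 1609 regions, and the smallest adjusted p was 0.107. An unadjusted p under 0.05 was found in 37 of the 314 and 142 of the 1609 regions. The libraries of this test are those that called the regions, and 240 of the 314 were listed for their difference in 1 housing condition only, a selection that itself moves the interaction, so the estimates and p-values of such regions are descriptions. Among the 74 regions listed in both housing conditions, 2 had an unadjusted p under 0.05. The smallest p-values belonged to 1700110I01Rik, a long intergenic RNA (4 CpGs, chromosome 14, 3272490 to 3272595), Lmna, which encodes the nuclear lamins A and C (3 CpGs), and Esrrg, an orphan nuclear receptor (25 CpGs). At 1700110I01Rik, mLN and pLN differed by -4.20 points in SPF mice (55.9%, 53.9% and 52.5% against 62.4%, 65.3% and 47.2%) and by -47.6 points in GF mice (35.5% and 39.3% against 87.5% and 82.5%), an interaction of 43.4 ± 7.60 points (SE). At Lmna the differences were 7.54 points in SPF and -35.2 points in GF mice, where pLN libraries had 88.9% and 85.9%. At Esrrg, a region 1735 bp upstream of the TSS, they were -35.6 points in SPF mice (33.9% to 46.1% against 73.0% to 79.1%) and -6.52 points in GF mice (52.0% and 56.4% against 57.2% and 64.2%), with an interaction of -29.1 ± 6.66 points (SE, adjusted p = 0.249). The interaction estimates had a median SE of 7.90 points. Estimates as large as 43.4 points (1700110I01Rik) and -29.1 points (Esrrg) were not called. With these libraries, large as well as small dependence on housing could therefore go uncalled.

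In sequence, the regions were not CpG islands for the most part. Over 500 bp around their centres, they had a median GC content of 47.8% and a median of 8 CpGs, and location regions from 2 to 5 kb had 46.2% and 8 CpGs, those from 5 to 50 kb 46.2% and 9 CpGs and those beyond 50 kb 45.0% and 9 CpGs. A GC content of at least 50% with an observed to expected CpG ratio of at least 0.6 was found in 8 of the 314 regions (2.55%), among them those of Adamtsl5, Hand1, Hic1, Osr1, Hoxa7, Mir196b and Zxdb, 3 of the 8 less and 5 more methylated in mLN. The share was 3.5%, 1.33% and 1.29% in the farther classes. The proximal regions were also shorter in CpGs, with a median of 9 measured CpGs against 11, 12 and 14. In the 20 overlapped RefSeq promoter windows, the GC box GGGCGG was found on either strand in 7 (35.0%, against 35.7% of all 32851 windows), CCAAT in 7 (35.0%, against 37.4%), TATAAA in 3 (15%, against 13.6%), TGACAG, the core of sites bound by Meis proteins, in 3 (15%, against 19.2%) and TAATTA, a homeodomain core, in 1 (5.00%, against 5.29%). No motif contains another, matches of different motifs may still share bases, and a match is a description, not a bound site.

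At the limit of the selection, the DMRs just inside 2000 bp were that of Gm23609 at 1993 bp (GF list, -27.5 points in the calling libraries and -12.3 points in SPF mice) and those of Rpsa-ps9 at 1985 bp (-28.9 points in SPF mice for the SPF DMR). Just outside were a further DMR of Lmx1b at 2011 bp (-40.1 points in SPF mice and -42.8 points in GF mice) and those of Gtf2a1l at 2012 bp (28.4 points in SPF mice and 24.8 points in GF mice for the SPF DMR).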

How the data were processed

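Methylation was measured by whole-genome bisulfite sequencing in 10 libraries of 4 groups. According to the labels and the methods of the study, the authors checked reads with FastQC 0.11.1, trimmed them with cutadapt 1.4, aligned them to GRCm38 with BSMAP 2.4.3, smoothed the values with bsseq and called DMRs between pairs of groups by quantiles of a t-statistic. The tool versions are those of the submitters' processing notes. The deposited table of CpGs inside DMRs holds methylated over all reads per CpG and library, an unsmoothed fraction from 0 to 1 that the authors computed after a coverage filter. The deposited DMR lists also hold the authors' group means, differences and area scores, which were not used. All 24182 CpG positions were checked against GRCm38.p6 and carried CG. Coordinates are 1-based.

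On the percent scale, each library's value of a region was the mean over its CpGs, each CpG once, leaving out CpGs for which some group had no value at all. The DMR positions and TSS distances were those of the deposited lists. Tests were made with limma 3.58.1 (lmFit, eBayes) in R 4.3.3 on the percent scale with Benjamini-Hochberg adjustment: each location list in the libraries of the other housing condition, housing in an additive model with location, and the interaction in a model with both terms and their product, housing and interaction over 1609 regions, the promoter-proximal ones and all other DMRs merged apart from them. The fits were tested on simulated data with known differences. The study describes replicates of its bulk sequencing as coming from independent experiments, and the labels do not tie libraries to animals, so p-values measure the spread between these libraries. In no pair of replicates were more than 14.2% of the CpG values identical, and all libraries were kept.

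Regions, gene lists and tests were chosen with earlier results of these data known. Named were, per gene list and for regions without a list, the 4 regions with the most CpGs, the regions with the largest differences in the other housing condition by direction or with the largest opposite ones, the smallest p-values for housing and interaction (3 each), and labels with at least 3 regions. A few regions that this rule names are not reported here, although they remain in the counts. Features came from GENCODE M21, sequences and promoters from RefSeq (GRCm38.p6). Alternatives tried were CpGs with a value in all libraries, regions of at least 5 CpGs, medians over CpGs, an arcsine square-root scale, leaving out each library, a replicate block, a TSS distance of at most 1000 bp, a difference of at least 25 points and an overlap of at least 50%.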

Additional observations from a re-analysis of the deposited data

Results flagged for a closer look

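In 2 regions every mLN library lay above every pLN library in SPF mice and below every pLN library in GF mice. At Mta1 (4 CpGs, intron) the location difference was 11 points in SPF mice and -5.30 points in GF mice, and at Pfkfb3, an activator of glycolysis (10 CpGs, intron, named after its values were seen), it was 7.07 points in SPF mice and -19.1 points in GF mice. Both are listed as DMRs in GF mice only. The difference between the housing conditions did not pass the interaction test over all regions, with 16.3 ± 6.29 points (SE) and adjusted p = 0.484 at Mta1 and 26.2 ± 6.28 points (SE) and adjusted p = 0.274 at Pfkfb3 (limma). The Pfkfb3 libraries had 60.4%, 66.5% and 59.8% in mLN SPF, 56.4%, 50.9% and 58.3% in pLN SPF, 53.7% and 45.5% in mLN GF, and 70.1% and 67.4% in pLN GF.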

How the results depend on the processing

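Counting only DMRs within 1000 bp of a TSS lowered the number called in the unused libraries to 74 of 85 SPF DMRs and 104 of 146 GF DMRs, because fewer DMRs were counted, and the number of regions listed in both housing conditions from 74 to 44 of 183. The shares stayed at 87.1%, 71.2% and 24%. Leaving out 1 SPF library in turn gave 160 to 180 of 250 GF DMRs called in SPF mice, and 1003 to 1049 of 1293 over all GF DMRs. It also gave 0 regions called for housing or interaction. With each of the 10 libraries left out in turn, 63.7% to 64.6% of regions were less methylated in mLN. Leaving out a GF library left 1 library in its group, assumed to vary like the others, and no calls are given for such fits. With a replicate block, which assumes that libraries of the same number are paired, 130 of 149 SPF DMRs and 180 of 250 GF DMRs were called. Over all DMRs, 721 of 806 and 1082 of 1293 were called, and still 0 regions for housing and interaction. Same-numbered libraries deviated from their group means with correlations of -0.0312 to 0.114 over the regions, so the numbers do not show pairing. With at least 5 CpGs, the shares called were 88.4% and 81.9% (665 of 709 and 914 of 1018 over all DMRs), and with an unsmoothed difference of at least 25 points 92.7% and 84.6% (613 of 634 and 921 of 993 over all DMRs). For single named regions, 960 of 1036 recomputed location differences moved by less than the pooled SD, 75 by more, and 1 reversed, that of Mta1 in GF mice (2.38 points with the median over CpGs). The small difference of 1700110I01Rik in SPF mice, also changed sign, from -4.20 to 0.278 points with the median over CpGs. The number of libraries and of CpGs per region limits all values. Housing, colony and institution cannot be told apart.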
